A study of Mus musculus with 35 samples.

Results

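A group of 33 named genes of glycolysis and of the transcriptional response to low oxygen was followed across 35 RNA libraries of mouse colon tumour organoids. They were picked by gene symbol from a table of 54354 gene rows, and all 33 were in it. They comprise 15 glycolytic enzymes, 5 genes for transport of glucose or lactate and for control of glycolytic flux, and 13 further genes known as hypoxia targets. Every library, controls included, came from organoids (epithelial cultures grown in vitro) labelled with the genotype AKP, tissue colon and cell type tumor. Palmitic acid, a saturated fatty acid, was given in 2 batches of 3 and 2 libraries, compared with 1 group of 3 controls that carries no batch label. Carmofur, a ceramidase inhibitor, was given in 15 libraries and compared with its own 12 controls. The stated aim was to see what fatty acid and ceramide levels do to the transcripts of these organoids. Whether any difference found with carmofur runs through ceramide was not tested. No dose, time or number of organoid lines is given in the labels. Nor do they say that replicates are separate cultures, and every p-value therefore rests on library-to-library spread, which may be technical.

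Glycolysis splits glucose into pyruvate in the cytosol, and lactate dehydrogenase then turns pyruvate into lactate when it is not passed to mitochondria. When oxygen is low, prolyl hydroxylases no longer mark the HIF alpha subunits for destruction, and HIF dimers bind a core of ACGTG or GCGTG in regulatory DNA. Many glycolytic enzymes are HIF targets themselves, beside genes for blood vessel growth, pH control, mitophagy and collagen modification, and the colon epithelium is a tissue where oxygen is normally low.

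The letters of the HIF core were searched in the 250 bases before each RefSeq transcription start (GRCm38.p6), as ACGTG and as GCGTG, on both strands. The letters CACGTG hold ACGTG on both strands. Promoter entries were found for 31 of the 33 symbols, with none for Bnip3l and Ndrg1. At least 1 of these words stood in a promoter of 29 of the 31 symbols: 13 of 15 enzymes, 5 of 5 transport and flux genes and 11 of 11 other targets. These counts take any promoter of a symbol, some symbols have several, and the same share over all symbols was not computed. The enzymes with neither word were Tpi1 and Gpi1, both past the carmofur threshold below. Vegfa held the words only in the window of its other start (chr17:46025164-46025413), which overlaps 9 annotated exons. Over the 47 member promoters, 44.7% held ACGTG, 55.3% held GCGTG and 78.7% held either. Over all 32851 promoters the shares were 16.6%, 28.2% and 38.6%. The median GC content was 60.4% for member promoters and 52.4% for all, and its part in the difference was not tested. Shown are the windows of the members that passed a test below and whose window overlaps no annotated exon, with matches in capitals on the strand of the gene, as ACGTG or GCGTG, or as CACGT or CACGC where the match lies on the opposite strand. They are Gapdh (chr6:125165774-125166023, minus strand), Pgk1 (chrX:106186850-106187099, plus strand), Egln3 (chr12:54203875-54204124, minus strand) and the upstream start of Vegfa (chr17:46032378-46032627, minus strand), which holds neither word.
Gapdh: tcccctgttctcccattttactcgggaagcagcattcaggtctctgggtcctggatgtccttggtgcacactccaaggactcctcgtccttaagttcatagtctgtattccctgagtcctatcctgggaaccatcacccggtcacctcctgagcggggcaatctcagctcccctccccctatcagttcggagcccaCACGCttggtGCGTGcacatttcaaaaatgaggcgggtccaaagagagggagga
Pgk1: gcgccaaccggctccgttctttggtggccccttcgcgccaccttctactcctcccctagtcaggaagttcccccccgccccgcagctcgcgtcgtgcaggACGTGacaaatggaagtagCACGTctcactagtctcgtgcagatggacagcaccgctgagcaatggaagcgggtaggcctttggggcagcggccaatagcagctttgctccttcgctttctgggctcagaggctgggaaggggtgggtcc
Egln3: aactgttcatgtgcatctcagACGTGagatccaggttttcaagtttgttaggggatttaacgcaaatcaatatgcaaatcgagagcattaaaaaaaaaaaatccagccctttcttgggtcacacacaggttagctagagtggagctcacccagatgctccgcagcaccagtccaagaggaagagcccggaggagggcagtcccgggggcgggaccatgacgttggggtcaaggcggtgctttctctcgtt
Vegfa: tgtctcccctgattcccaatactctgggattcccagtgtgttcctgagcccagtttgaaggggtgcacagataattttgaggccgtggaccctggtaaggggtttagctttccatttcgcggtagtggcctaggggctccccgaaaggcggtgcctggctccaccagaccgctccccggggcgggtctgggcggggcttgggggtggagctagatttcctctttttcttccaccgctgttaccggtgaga
Gapdh holds GCGTG on each strand, Pgk1 holds ACGTG on each strand, and Egln3 holds ACGTG once. A match of these letters is a description of the sequence and is no measured HIF site.

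Estimated counts summed to between 762888 and 3742289 per library in the palmitic acid experiment, and to between 1663750 and 10609563 in the carmofur experiment. The shallowest library was palmitic acid control 1. It had the lowest median rank correlation with the other libraries of the palmitic acid experiment. Control 1, carmofur 8 and carmofur 10 had the lowest within the carmofur experiment. The epithelial markers were Epcam, Cdh1, Krt8, Krt18, Krt20, Vil1, Cdx2 and Lgals4, and 8 of 8 were present. Together they summed to 2735 to 5951 CPM (read counts scaled to a common library total with TMM factors). They summed to 3344 to 3690 CPM in the palmitic acid controls and to 2735 to 2956 CPM in the 5 treated libraries, without overlap. They summed to 3125 to 4698 CPM in the carmofur controls (median 3761) and to 3662 to 5951 CPM with carmofur (median 4297), overlapping. Only sums are given, so which of these markers differ is not shown, and their part in the results of either treatment was not tested. Mesenchymal markers (7) summed to at most 6.84 CPM, with Col1a1, Col1a2 and Pdgfrb at 0 in every group. Immune markers summed to at most 166 CPM, with Cd3e, Adgre1 and Csf1r at 0, and endothelial and blood markers (6) to at most 24.8 CPM, with Cdh5, Kdr, Hba-a1 and Hbb-bs at 0. Mitochondrial mRNAs made up 4.43% to 6.69% of the counts. In these bulk libraries, fewer cells of a type and less RNA per cell cannot be told apart.

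Levels differed widely among the members. Per kilobase of exon in the carmofur controls, Ldha, which makes lactate from pyruvate, was highest at 2640 ± 157 CPM per kb (SD, n = 12). It was followed by the aldolase gene Aldoa at 1118 ± 286, Pgk1, a kinase that makes ATP, at 1076 ± 99.8, Gapdh at 846 ± 117 and Tpi1, triose-phosphate isomerase, at 629 ± 79.7 CPM per kb. Aldoa and Pgk1 did not differ beyond their spread. The highest of the other hypoxia targets were the mitophagy receptor gene Bnip3 at 600 ± 227 CPM per kb and Higd1a, a mitochondrial inner membrane protein gene, at 450 ± 43.9 CPM per kb. Ldha also stood first in the other 4 groups, and Pfkfb4, a bifunctional enzyme of fructose-2,6-bisphosphate metabolism, stood last in all groups at 0.28 ± 0.33 CPM per kb in the carmofur controls. Pfkfb4 did not pass the filter on low counts in either experiment, and Pfkm, the muscle phosphofructokinase gene, did not pass it with palmitic acid, which left 31 members tested for palmitic acid and 32 for carmofur. Eno1 is uncertain throughout, because its near-identical copy Eno1b took 58.4% of the counts of the pair.

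In palmitic acid batch 1, 1 member was lower than in the controls past the threshold, the enzyme gene Pfkp. Several of the other hypoxia targets had lower values that did not pass. Pfkp, the platelet-type phosphofructokinase that commits sugar to glycolysis, was at 384, 325 and 352 CPM in the controls, at 209, 253 and 219 CPM in batch 1 and at 222 and 235 CPM in batch 2. Every treated library was below every control. Its log2 fold change in batch 1 was -0.64 ± 0.15 (SE), with an adjusted p of 0.0216 in edgeR's quasi-likelihood test (Benjamini-Hochberg over all 9845 genes tested). It was the only one of 31 members past the threshold of 0.05, 3.23% of them, against 0.559% of all genes tested (0.244% lower). An unadjusted p under 0.05 was reached by 6 of 31 members and 7.73% of all genes. The call was lost without batch 1 replicate 1 (adjusted p 0.254) or replicate 3 (0.193), without the filter on low counts (0.0555), and in the fit blocked on replicate number (0.0551). In batch 2, which shares its controls with batch 1, the log2 fold change was -0.63 ± 0.17 with an adjusted p of 0.0972, and DESeq2 called it.

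**Figure D1:**
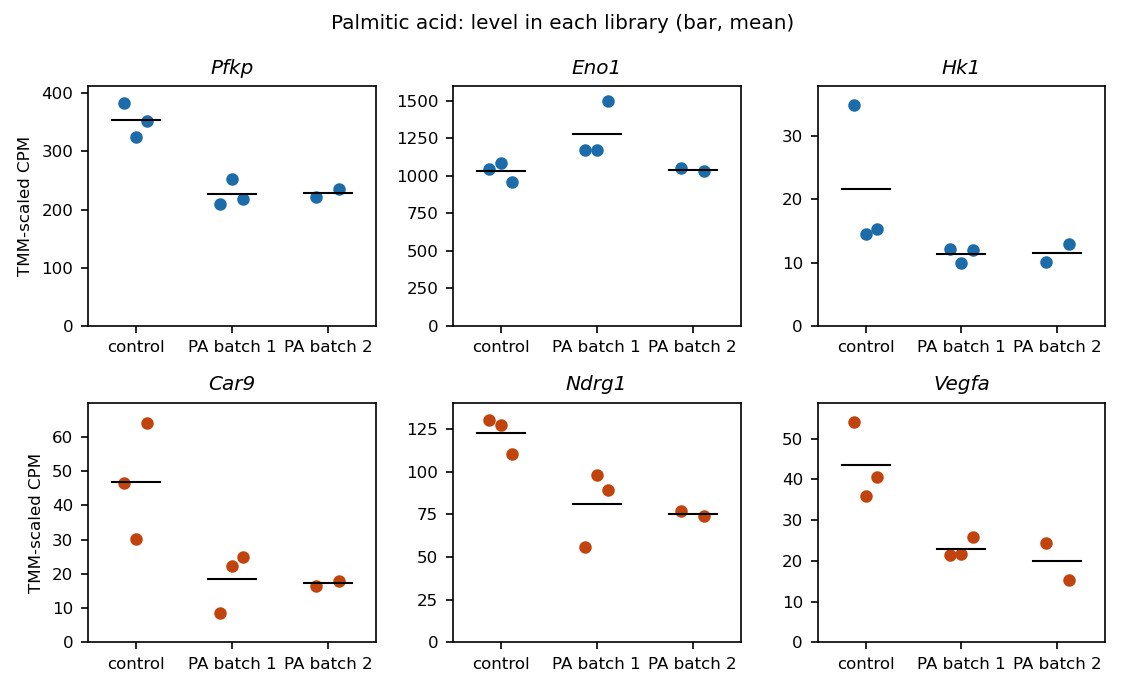
Level of 6 members in each palmitic acid library, in TMM-scaled CPM, for the 3 controls, 3 libraries of batch 1 and 2 of batch 2. Points are libraries and bars are group means. Pfkp was at 325 to 384 CPM in controls and 209 to 253 CPM in treated libraries.

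The other enzymes with the lowest p in batch 1 were Eno1 and Hk1. Hk1, the hexokinase gene of most tissues, was at 34.8, 14.5 and 15.3 CPM in controls, 12.1, 9.91 and 12.0 CPM in batch 1 and 10.02 and 12.9 CPM in batch 2. Its treated libraries lay below the controls, but with a log2 fold change of -0.87 ± 0.56 (adjusted p 0.768, edgeR). Eno1, an enolase gene, was at 1043, 1087 and 960 CPM in controls, 1168, 1174 and 1495 CPM in batch 1, and 1051 and 1031 CPM in batch 2. Batch 1 lay above the controls and batch 2 within them, at log2 fold changes of 0.31 ± 0.12 (adjusted p 0.431) and 0.02 ± 0.13. The 14 enzymes tested had a median log2 fold change of -0.017 in batch 1, with 7 positive and 7 negative, and -0.062 in batch 2, beside medians of 0.014 and -0.010 over all genes.

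The lowest adjusted p of the 4 tested transport and flux genes in batch 1 was 0.954. Slc2a1, the glucose transporter GLUT1, was at 32.2, 60.3 and 39.1 CPM in controls, 28.9, 58.0 and 56.2 CPM in batch 1 and 46.8 and 31.2 CPM in batch 2, with the ranges overlapping. Slc16a3, a lactate exporter, was at 20.6, 34.5 and 27.9 CPM in controls, 20.7, 21.2 and 30.3 CPM in batch 1 and 23.8 and 20.0 CPM in batch 2. Pfkfb3, which makes the phosphofructokinase activator fructose-2,6-bisphosphate, was at 28.4, 11.4 and 24.3 CPM in controls, 23.3, 8.14 and 17.3 CPM in batch 1 and 13.5 and 16.2 CPM in batch 2. These also overlapped. Pdk1, the kinase that restrains pyruvate dehydrogenase, had log2 fold changes of 0.0038 ± 0.31 and -0.53 ± 0.35 in the 2 batches.

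Among the 13 other hypoxia targets, 4 lay below the controls in every batch 1 library: Car9, Ndrg1, Vegfa and P4ha1. Car9, carbonic anhydrase IX, was at 46.4, 30.2 and 63.9 CPM in controls, 8.62, 22.3 and 24.997 CPM in batch 1, and 16.5 and 17.9 CPM in batch 2. Its groups did not overlap, but its log2 fold change of -1.33 ± 0.40 had an adjusted p of 0.13 in edgeR's test. Leaving out control replicate 2, or merging both batches, brought Car9 past the threshold. Ndrg1, a stress-responsive gene of differentiation, was at 130, 127 and 110 CPM in controls, 56.0, 98.0 and 89.4 CPM in batch 1, and 76.9 and 74.1 CPM in batch 2. Vegfa, the vascular endothelial growth factor, was at 54.1, 36.0 and 40.5 CPM in controls, 21.5, 21.6 and 26.0 CPM in batch 1, and 24.4 and 15.4 CPM in batch 2. Both stood lower in all 5 treated libraries. Their log2 fold changes in batch 1, -0.59 ± 0.22 (adjusted p 0.401) and -0.90 ± 0.37 (0.493), did not pass. P4ha1, a collagen prolyl hydroxylase subunit, had -1.44 ± 0.65 (0.575).

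In all, 6 of 31 members lay below every control in batch 1 and 1 lay above, against 6.12% and 6.92% of all genes. In batch 2 with its 2 libraries, 10 of 31 lay below, against 9.02% of all genes. These were Hk1, Pfkp, Pkm, Bnip3, Ndrg1, Egln3, Vegfa, Car9, P4ha1 and P4ha2. The median log2 fold change of the 13 other targets was -0.069 in batch 1, with 9 negative, and -0.30 in batch 2, with 13 negative. No member passed in batch 2 by edgeR's test (0.325% of all genes did), where 4 of 31 had an unadjusted p under 0.05 (7.1% of all genes), limma-voom called 0 and DESeq2 called 1. Between the batches, no member passed by edgeR's test (0.102% of all genes did), 2 of 31 had an unadjusted p under 0.05 (2.37% of all genes), and limma-voom called 0. As the controls carry no batch label, batch and treatment cannot be told apart.

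**Figure D2:**
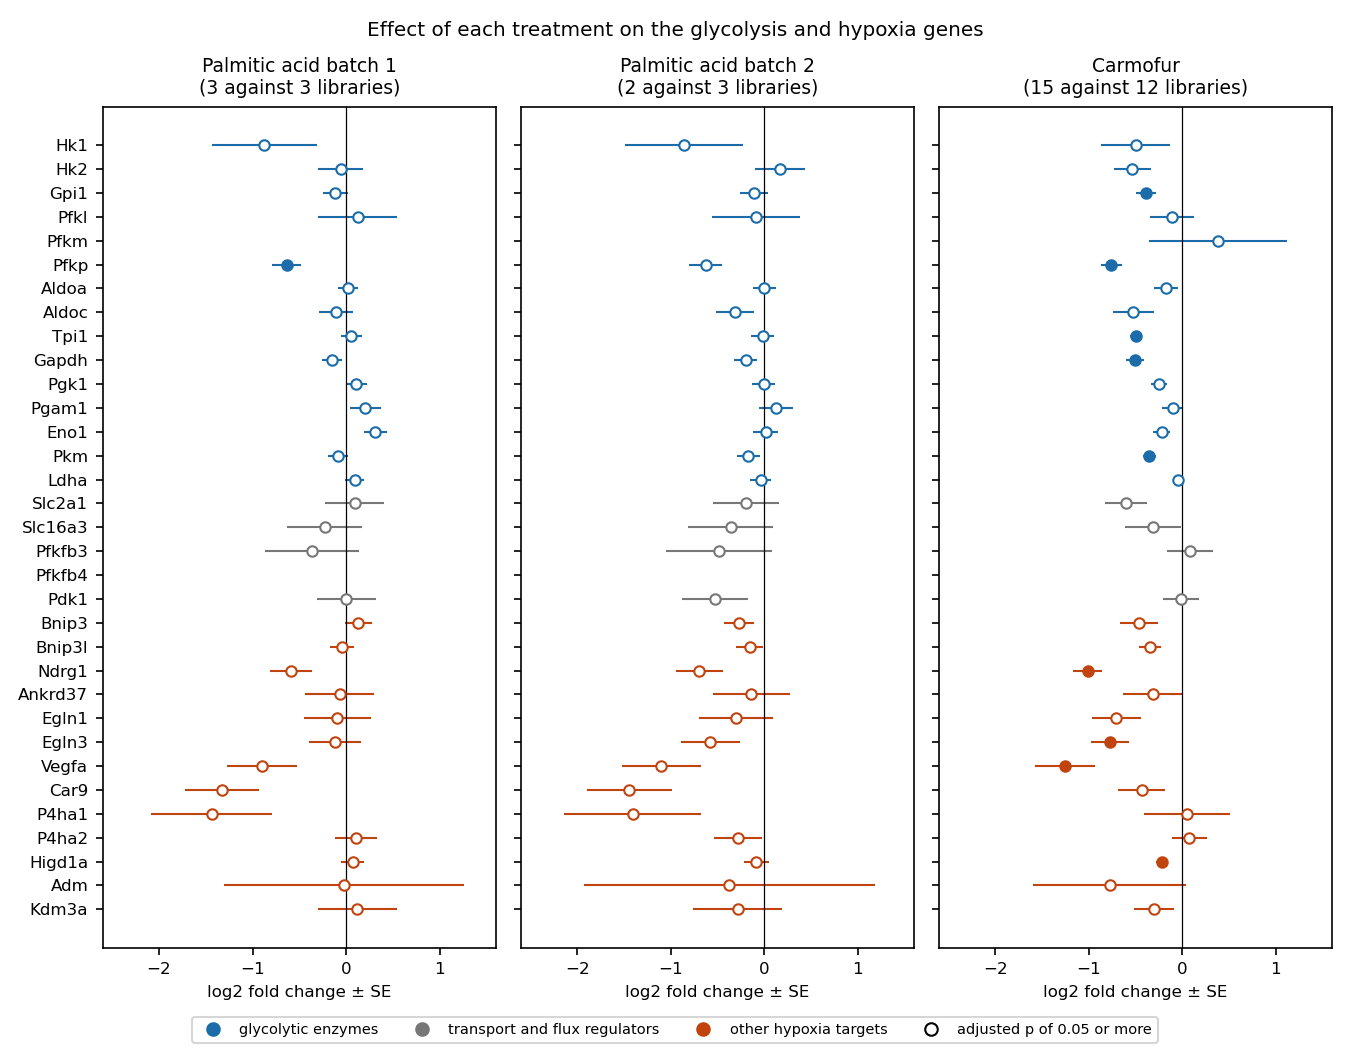
Log2 fold change of each member (± SE) in palmitic acid batch 1, batch 2 and carmofur, with filled symbols for an adjusted p under 0.05. Filled symbols are 1 enzyme in batch 1, none in batch 2, and 5 enzymes and 4 other hypoxia targets with carmofur.

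Carmofur libraries held less mRNA of 5 glycolytic enzymes, Pfkp, Tpi1, Gapdh, Pkm and Gpi1, and of 4 other hypoxia targets, Ndrg1, Vegfa, Egln3 and Higd1a. These 9 of 32 members tested (28.1%) passed and were lower, and none was higher. Over all 9992 genes tested, 9.02% passed, 3.8% as lower and 5.21% as higher. An unadjusted p under 0.05 was reached by 17 of 32 members and 19% of all genes. Of all 32 members, 28 had a negative log2 fold change, and their median was -0.35, beside 0.0016 over all genes. With counts summed over sets of libraries with consecutive numbers (below), 3 of the 9 passed, Pfkp, Tpi1 and Ndrg1 (2.64% of all genes). Without the 3 libraries that stand apart, 13 members passed (9.25%).

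On GRCm38, these protein-coding genes lie at chr13:6579768-6648777 (Pfkp), chr6:124810586-124814296 (Tpi1), chr6:125161715-125166467 (Gapdh), chr9:59656368-59679375 (Pkm), chr7:34201330-34230336 (Gpi1), chr15:66929318-66969640 (Ndrg1), chr17:46016993-46032369 (Vegfa), chr12:54178981-54203860 (Egln3) and chr9:121848563-121858362 (Higd1a). Pfkp ranged over 284, 323 and 541 CPM (lowest, median and highest) in the 12 controls and over 136, 204 and 276 CPM in the 15 carmofur libraries. It was the only member whose carmofur libraries all lay below all controls, which held for 0.17% of all genes. Its log2 fold change was -0.76 ± 0.11 (adjusted p 5.24e-06 in edgeR's test). Tpi1, which interconverts the triose phosphates, ranged over 1471, 1702 and 2147 CPM in controls and 982, 1216 and 1475 CPM with carmofur, and the ranges met only at their edges. Its log2 fold change was -0.50 ± 0.07 (7.53e-07). Gapdh, which oxidises glyceraldehyde-3-phosphate and is often used as a reference gene, ranged over 2857, 3451 and 4210 CPM in controls and 1875, 2196 and 3511 CPM with carmofur. Its log2 fold change was -0.51 ± 0.10 (0.000199), and 14 of 15 treated libraries were below the control median.

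Pkm, the pyruvate kinase gene whose splice forms are not told apart in a gene-level count, ranged over 2238, 2679 and 3316 CPM in controls and 1660, 2069 and 2574 CPM with carmofur. All 15 treated libraries were below the control median, at a log2 fold change of -0.35 ± 0.07 (adjusted p 0.00073). Gpi1, glucose-6-phosphate isomerase, ranged over 324, 442 and 565 CPM in controls and 203, 312 and 435 CPM with carmofur, again with all 15 below the control median. Its log2 fold change was -0.39 ± 0.10 (0.00996). The call for Gpi1 was lost without carmofur replicates 13 to 15 or without controls 10 to 12.

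The other 10 enzymes did not pass. Hk2, the inducible hexokinase, had -0.53 ± 0.20 (adjusted p 0.0881) with 15 of 15 libraries below the control median, and Pgk1 had -0.25 ± 0.09 (0.0666). Ldha, the most abundant member, had -0.04 ± 0.04 (0.679), at 8737 ± 519 CPM in controls (SD, n = 12) and 8476 ± 613 CPM with carmofur (n = 15). Aldoa had -0.18 ± 0.13 (0.526), Aldoc -0.53 ± 0.22 (0.152) and Eno1 -0.22 ± 0.09 (0.124). Summed with Eno1b, Eno1 passed at -0.24 (adjusted p 0.0230, in a fit where 9.01% of all genes passed). Hk1, Pfkl, Pfkm and Pgam1 had log2 fold changes from -0.50 to 0.38, with adjusted p of 0.546 or more.

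Of the transport and flux genes, Slc2a1 came nearest to the threshold. It ranged over 30.7, 60.4 and 131 CPM in controls and 20.7, 39.4 and 74.3 CPM with carmofur, overlapping broadly, at a log2 fold change of -0.60 ± 0.23 (adjusted p 0.0942). Slc16a3 ranged over 10.8, 29.9 and 59.9 CPM in controls and 8.58, 23.0 and 52.0 CPM with carmofur (0.665). Pfkfb3 ranged over 12.8, 33.3 and 64.3 CPM and 13.5, 31.2 and 62.7 CPM (0.925). For both, treated and control libraries covered nearly the same range. Pdk1 had -0.014 ± 0.19 (0.985). By edgeR's test 0 of these 4 passed, 1 had an unadjusted p under 0.05, and limma-voom called 1, Slc2a1.

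Ndrg1 was the other hypoxia target with the lowest p. It ranged over 112, 189 and 258 CPM in controls and 44.2, 83.4 and 158 CPM with carmofur, at a log2 fold change of -1.01 ± 0.15 (adjusted p 5.96e-06), with all 15 treated libraries below the control median. Vegfa ranged over 18.6, 72.5 and 94.1 CPM in controls and 3.40, 28.8 and 60.6 CPM with carmofur, also 15 of 15 below, at -1.26 ± 0.32 (0.00699). Its lowest control, replicate 7, lay inside the treated range. Egln3, an oxygen-dependent HIF prolyl hydroxylase that is itself induced by HIF, ranged over 59.8, 75.7 and 130 CPM in controls and 17.6, 45.8 and 79.5 CPM with carmofur, at -0.78 ± 0.20 (0.00729). Higd1a ranged over 1186, 1347 and 1712 CPM in controls and 943, 1168 and 1369 CPM with carmofur, at -0.22 ± 0.06 (0.0117). This small difference was lost without controls 1 to 3, or without carmofur replicates 13 to 15.

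The other 9 hypoxia targets did not pass. Bnip3l, the paralogue of Bnip3 and also a mitophagy receptor, had -0.35 ± 0.12 (adjusted p 0.0501, just outside the threshold), and Bnip3 had -0.46 ± 0.20 (0.189). Egln1, the main HIF prolyl hydroxylase, had -0.71 ± 0.26 (0.09). Car9 had -0.43 ± 0.25 (0.375), with 13 of 15 libraries below the control median. Ankrd37, Kdm3a, a histone demethylase gene, and Adm, the vasodilator peptide adrenomedullin, had -0.32, -0.30 and -0.78, with adjusted p of 0.518 or more. The 2 collagen prolyl hydroxylase genes, P4ha1 and P4ha2, were the only 2 of the 13 with positive values, 0.05 ± 0.46 and 0.07 ± 0.18.

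The effects of carmofur and palmitic acid were compared in 1 fit of all 35 libraries, with the mean of both batches as the palmitic acid effect. The common coefficient of variation between libraries was 0.969 in this fit. It was 0.407 in the fit of palmitic acid alone and 0.75 in that of carmofur alone. An absence of calls here therefore does not show equal effects. No member differed between the treatments by edgeR's test (0.818% of 14052 genes did), 2 of 33 had an unadjusted p under 0.05 (7.75% of all genes), and limma-voom called 1, Tpi1. Tpi1 had a carmofur effect lower than the palmitic acid effect by a log2 value of -0.51 ± 0.14 (adjusted p 0.0657). For Pfkp the difference was -0.12 ± 0.23, for Ndrg1 -0.36 ± 0.32 and for Vegfa -0.24 ± 0.66. Car9 and P4ha1 had differences of 0.95 ± 0.54 and 1.504 ± 0.94 (adjusted p 0.797 and 0.87), so their order between treatments is not shown to differ.

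The carmofur effect on several members differed between groups of libraries. These groups were drawn for this work from the library numbers in the labels, which call neither blocks nor sets a batch. Counted from the first library, 3 blocks of 12 numbers hold 3 controls and 6 treated libraries (block 1), 3 and 6 (block 2), and 6 and 3 (block 3), and 9 sets hold 3 consecutive numbers each. The numbers run in 4 unbroken stretches whose gaps fall inside the blocks, so other groupings are possible. The treated libraries of block 3 are a single set, carmofur replicates 13 to 15. The treatment effect differed across blocks for 5 of 32 members by edgeR's test, against 1.78% of all genes: Bnip3l (adjusted p 7.35e-05), Pgk1 (0.00288), Bnip3 (0.00592), Gapdh (0.0195) and Vegfa (0.0276). An unadjusted p under 0.05 was reached by 15 of 32 members and 11.6% of all genes. With counts summed by set, which leaves 9 sums, 0 of 32 passed. With the unbroken stretches as blocks instead, chosen after seeing the data, 12 members differed (3.04% of all genes). This used the 3 stretches with both groups: carmofur 1 to 6 with controls 4 to 6, carmofur 7 to 12 with controls 7 to 9, and carmofur 13 to 15 with controls 10 to 12.

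Bnip3l was at 810 ± 54.5 CPM (SD) in controls and 556 ± 58.6 CPM with carmofur in block 1, at 826 ± 65.3 and 937 ± 63.5 CPM in block 2, and at 961 ± 74.9 and 506 ± 48.4 CPM in block 3. All treated libraries lay below all controls in blocks 1 and 3, while in block 2 the ranges overlapped and the treated mean was the higher. Pgk1 followed the same order, at 2443 ± 79.2 and 1918 ± 252 CPM in block 1, 2271 ± 188 and 2428 ± 219 CPM in block 2, and 2472 ± 278 and 1491 ± 160 CPM in block 3. Bnip3 was at 2159 ± 190 and 1230 ± 218 CPM, 1228 ± 215 and 1018 ± 76.5 CPM, and 1025 ± 137 and 437 ± 38.6 CPM. Bnip3 controls alone covered a wide range, from 919 CPM in the lowest control to 2356 CPM in the highest.

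Gapdh was at 3091 ± 354 and 2070 ± 133 CPM in block 1, 3681 ± 363 and 3112 ± 317 CPM in block 2, and 3606 ± 527 and 1905 ± 27.04 CPM in block 3. The treated mean was lower in each block, with overlap in block 2 only. Vegfa was at 83.5 ± 1.19 and 25.1 ± 10.1 CPM, 80.3 ± 12.0 and 42.8 ± 11.1 CPM, and 52.3 ± 18.3 and 4.52 ± 1.88 CPM. Its log2 differences within blocks were -1.88, -0.93 and -3.39, with no overlap in any block. These values depend on the grouping: within the 3 stretches the log2 differences of Vegfa were -1.82, 0.11 and -3.72, those of Gapdh -0.83, -0.015 and -1.10, and those of Bnip3 -0.0025, 0.076 and -1.3002. The differences across blocks for Gapdh and Vegfa were lost without carmofur replicates 10 to 12 or without controls 10 to 12. In carmofur replicates 10 to 12, part of block 2, mitochondrial mRNAs made up 6.38% to 6.69% of counts, against 4.95% to 5.55% in the other carmofur libraries. In controls 7 to 9, part of block 3, they made up 5.96% to 6.09%, against 4.43% to 5.55% in the other controls. Their part in the block differences was not tested.

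**Figure D3:**
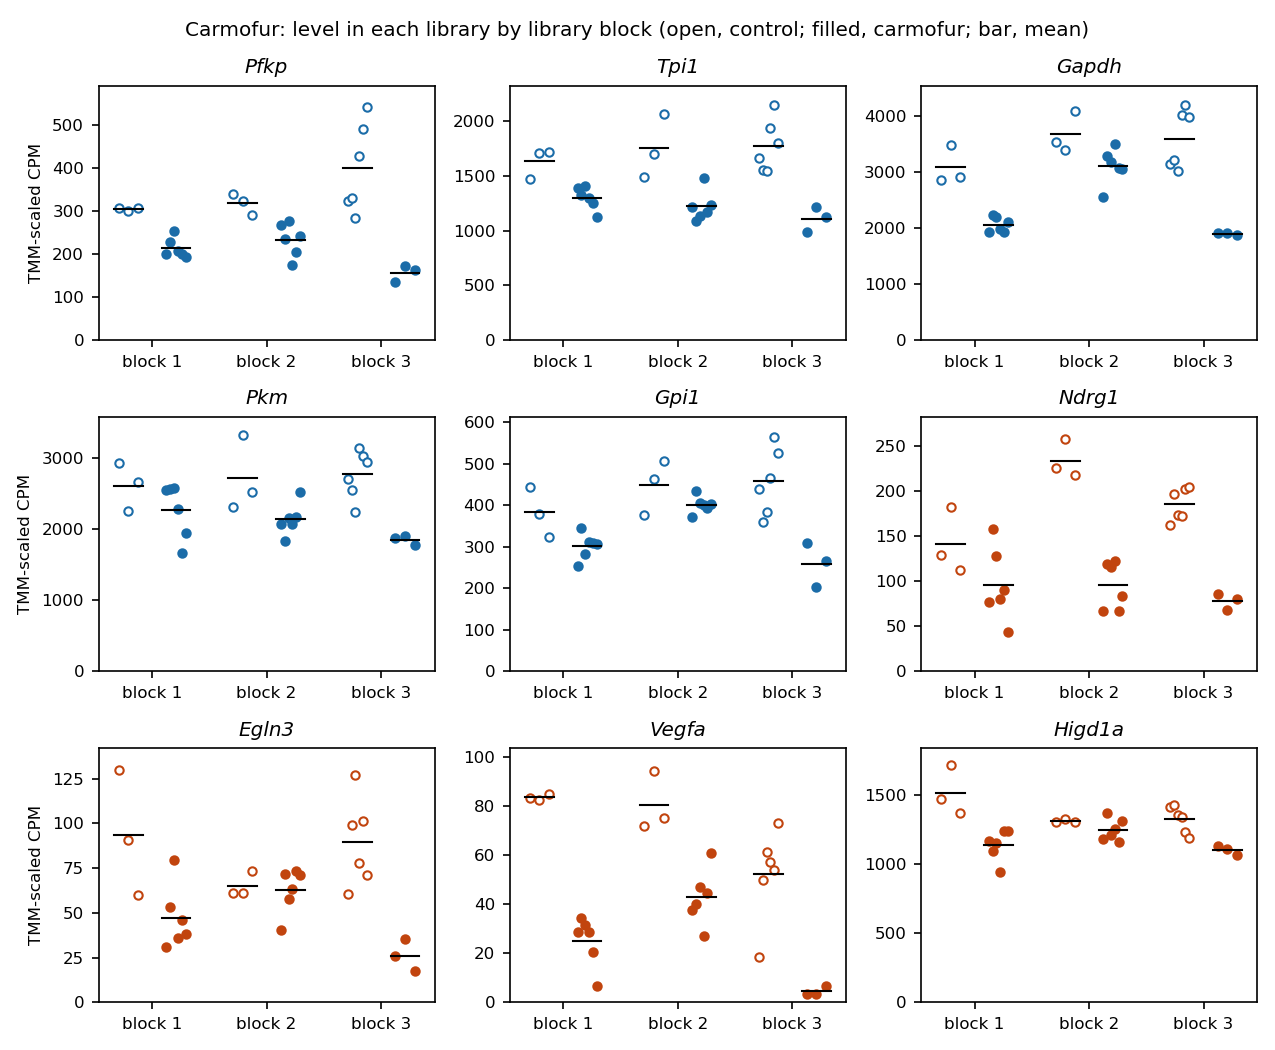
Level of the 9 members that passed the carmofur test, in TMM-scaled CPM, by library block (open, control; filled, carmofur; bars, means). Vegfa was at 4.52 CPM on average in treated block 3 libraries and 42.8 CPM in those of block 2, and Pfkp was below the controls in each block.

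Within blocks, every treated library lay below every control for 10 of 32 members in block 1 (6 enzymes and 4 other targets), against 3.8% of all genes. In block 2 this held for 5 (3 and 2), against 4.61%, and in block 3 for 19 (11 enzymes, 1 transport or flux gene and 7 other targets), against 5.32%. Pfkp, Tpi1 and Vegfa met it in all 3 blocks, as did 0.5% of all genes. Fitted alone, block 1 had 8 members past the threshold (2.15% of all genes), block 2 had 2, Tpi1 and Ndrg1 (4.75%), and block 3 had 17 (5.33%), all lower. With block as a covariate 16 members passed (10.7%).

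**Figure D4:**
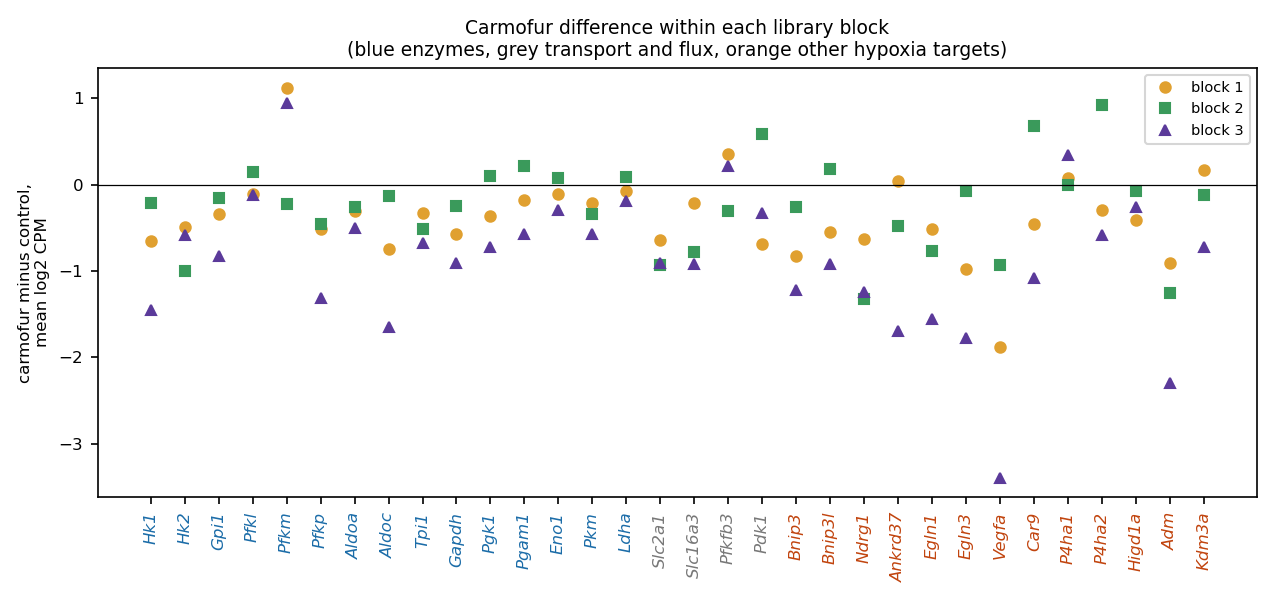
Difference between carmofur and control means of log2 CPM within each library block, for the 32 members tested. Block 3 values (triangles) are the lowest of the 3 for many members, down to -3.39 for Vegfa, and block 2 values (squares) are near 0 for Pgk1, Bnip3l and Egln3.

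Glycolytic enzymes and other hypoxia targets were then set side by side. With carmofur, 5 of 15 enzymes and 4 of 13 other targets passed as lower, beside 3.8% of all genes. Negative values were held by 14 and 11. The median log2 fold changes were -0.35 and -0.43, beside 0.0016 over all genes. The enzyme median minus the target median was 0.083. It was 0.052 in palmitic acid batch 1 and 0.24 in batch 2. The median within-block differences were -0.33, -0.21 and -0.58 for the enzymes and -0.51, -0.12 and -1.22 for the other targets in blocks 1, 2 and 3. All genes had medians of 0.10, 0.013 and 0.048.

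Per library, relative to the mean of the controls, the median of the enzymes ran from -0.76 to -0.03 over the 15 carmofur libraries and that of the other targets from -1.23 to -0.05. In the controls they ran from -0.21 to 0.23 and from -0.14 to 0.40. The lowest 3 libraries on both scales were carmofur replicates 13 to 15, at -0.76, -0.51 and -0.61 for enzymes and -0.96, -1.20 and -1.23 for other targets. The enzyme median was below the target median in 5 of 15 carmofur libraries and 8 of 12 controls. In the palmitic acid experiment it was below in 1 of 3 controls and in none of the 5 treated libraries, whose enzyme medians (-0.13 to 0.04) overlapped those of the controls (-0.06 to 0.07).

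**Figure D5:**
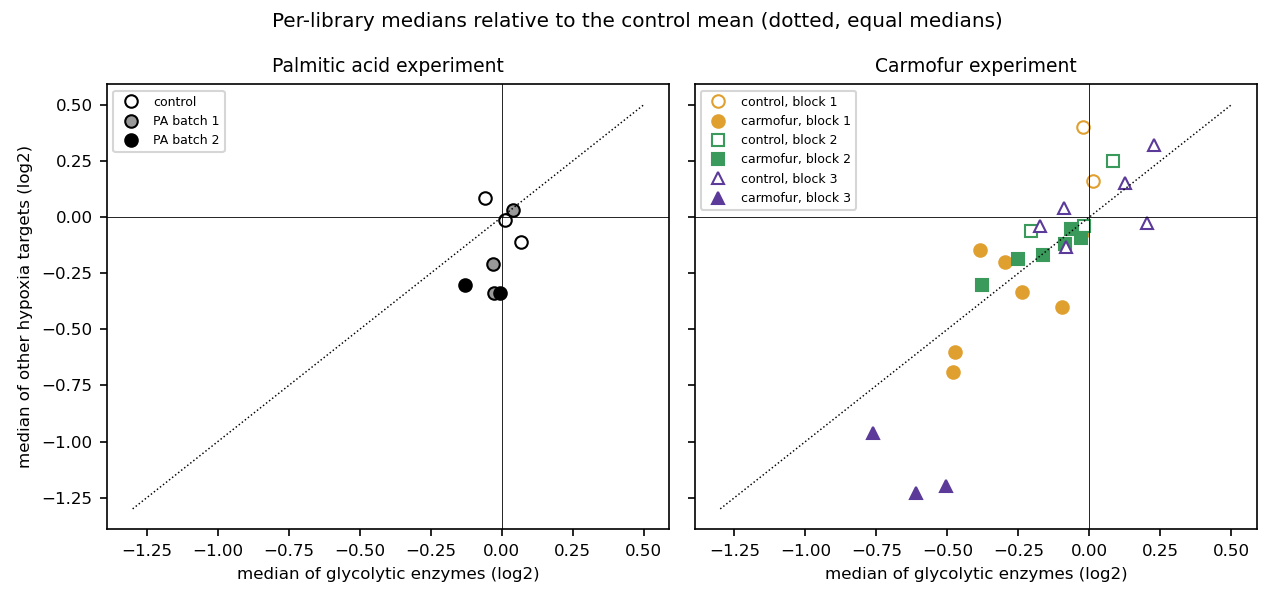
Median of the 13 other hypoxia targets against the median of the glycolytic enzymes in each library, as log2 differences from the control mean of the same experiment. Carmofur libraries of block 3 lie lowest, with target medians of -0.96 to -1.23, and palmitic acid libraries have target medians of -0.34 to 0.03.

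Further genes of these pathways were read from lists. Of 21 further hypoxia targets tested with carmofur, 3 were lower and 1 higher, beside 3.8% and 5.21% of all genes. Ero1a, an oxidase of disulfide bond formation in the endoplasmic reticulum, was at 620 ± 114 CPM in carmofur controls (SD, n = 12) and 260 ± 131 CPM with carmofur (n = 15), a log2 fold change of -1.26 ± 0.23 (adjusted p 0.000216). It also fell in palmitic acid batch 1 (-0.92 ± 0.15, 4.55e-05) and batch 2 (-0.86 ± 0.17, 0.00272), from 434 ± 73.6 CPM in controls to 229 ± 11.1 and 239 ± 25.3 CPM. Among the 20 tested with palmitic acid it was the only one to pass in either batch. Fam162a, a mitochondrial protein gene, and Tfrc, the transferrin receptor, fell with carmofur by 0.46 and 0.61 on the log2 scale (adjusted p 0.0318 and 0.0119). Loxl2, a lysyl oxidase family gene, rose from 48.3 ± 8.75 to 106 ± 30.7 CPM (1.14 ± 0.15, 6.89e-07) and differed between the treatments (1.23 ± 0.30, 0.0257).

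Of 9 other glycolytic isozymes and regulators tested with carmofur, 2 rose, beside 5.21% of all genes. Slc2a3, the glucose transporter GLUT3, rose from 218 ± 40.9 to 443 ± 110 CPM (1.02 ± 0.12, adjusted p 5.53e-08), and Eno3, the muscle enolase, rose from 354 ± 88.8 to 595 ± 189 CPM (0.75 ± 0.14, 0.000261). Of 13 genes of pyruvate fate, 3 fell, beside 3.8% of all genes: Pdha1 and Dld, subunits of the pyruvate dehydrogenase complex, and Mpc1, of the mitochondrial pyruvate carrier, at -0.42 ± 0.09, -0.46 ± 0.11 and -0.42 ± 0.08. Of 10 genes of gluconeogenesis and glycogen, 3 fell, beside the same 3.8%: Pck2 (-1.09 ± 0.17, 8.89e-06), Pgm1 (-0.70 ± 0.19, 0.0136) and G6pc3 (-0.68 ± 0.22, 0.0363). Across the blocks, Ugp2, which makes UDP-glucose, differed by edgeR's test (adjusted p 0.000351). So did 1 of 21 further hypoxia targets (0.00994), beside 1.78% of all genes. By edgeR's test 0 of 12 genes of the HIF machinery and 0 of 7 of the pentose phosphate pathway passed with carmofur, beside 9.02% of all genes. An unadjusted p under 0.05 was reached by 0 and 0, beside 19% of all genes. In lists of 12 and 7 genes, these counts do not show an absence of effect. Log2 fold changes of the HIF machinery ran from -1.60 to 0.63. Hif1a, singled out after its values were seen, was at 76.9 ± 19.7 CPM in carmofur controls and 73.2 ± 26.7 CPM with carmofur.

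The median log2 fold change with carmofur was -0.20 for the further hypoxia targets, 0.49 for the other isozymes and regulators, -0.17 for pyruvate fate, -0.18 for gluconeogenesis and glycogen, 0.12 for the HIF machinery and -0.12 for the pentose phosphate pathway, beside 0.0016 over all genes. In palmitic acid batch 1 the 6 medians lay between -0.22 and 0.09, beside 0.014. There, apart from Ero1a, no gene of these lists passed by edgeR's test. An unadjusted p under 0.05 in batch 1 was reached by 3 of 20 further hypoxia targets, 1 of 12 HIF machinery genes, 1 of 8 other isozymes, 1 of 13 genes of pyruvate fate, 0 of 7 of the pentose phosphate pathway and 2 of 10 of gluconeogenesis and glycogen, beside 7.73% of all genes. Other tools were not run on these lists.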

How the data were processed

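The authors deposited 1 table of estimated counts for genes in all 35 libraries. It was made with Salmon 1.3.0 and mm10 per the submitters' processing notes, from poly(A)-selected directional libraries per the labels' protocols. The annotation release is not given in the sources used here. Rows with no gene name hold 0.0216% of the counts. The reads carry no stated molecular identifiers, so counting floors (3 counts) cover counting error only.

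The whole numbers were tested with edgeR 4.0.16 in R 4.3.3: TMM scaling, the default low-count filter, a robust quasi-likelihood F test and Benjamini-Hochberg adjustment over every tested gene (threshold 0.05). A first fit held the 8 palmitic acid libraries (9845 genes), another the 27 carmofur libraries (9992), and another all 35, for the difference of effects (14052). The test across library blocks has a treatment by block term. The SE is the size of the log2 fold change over the square root of F. Scaling of CPM was done within each experiment, so levels are not compared between experiments. Medians per library used log2 CPM with a prior count of 2. The tests of each palmitic acid batch and of carmofur against controls were checked on simulated counts of independent libraries. That simulation held no library sets or blocks, and the tests of differences between batches, treatments and blocks were not simulated.

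The members and lists were chosen with earlier results of these data known. All members are named. For members past the threshold and the 3 with the lowest p of each member set, values by library were given for palmitic acid. For carmofur, their lowest, median and highest values, or block means with SD, were given. From other lists the members past the threshold were named, at most 4 per comparison. The 1 further hypoxia target that differed across blocks was not named. Exon lengths and positions are of GENCODE M21 and promoters of RefSeq, both GRCm38. Alternatives were other scalings (RLE, library size), limma 3.58.1 voom, DESeq2 1.42.0, other filters, near-identical copies summed, libraries or sets left out, replicate and library blocks, merged batches, counts summed by set, and unbroken stretches of library numbers as blocks.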

Additional observations from a re-analysis of the deposited data

Results flagged for a closer look

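For 5 members the carmofur effect differed between the 3 library blocks by edgeR's quasi-likelihood test of the treatment by block term, with Benjamini-Hochberg adjustment over all genes. Bnip3l had an adjusted p of 7.35e-05, with log2 differences of -0.55, 0.18 and -0.92 in blocks 1, 2 and 3. Pgk1 had 0.00288, with -0.36, 0.09 and -0.73. Bnip3 had 0.00592, with -0.83, -0.26 and -1.22. Gapdh had 0.0195, with -0.58, -0.24 and -0.91. Vegfa had 0.0276, with -1.88, -0.93 and -3.39. In each case the size was least or the sign positive in block 2 and the value was lowest in block 3. The blocks were drawn from the library numbers for this work. With unbroken stretches of numbers as blocks, the log2 differences of Vegfa in the 3 stretches were -1.82, 0.11 and -3.72.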

How the results depend on the processing

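No member past the threshold reversed its direction in the refits of each effect. Within the unbroken stretches, where only differences of means were taken, 1 stretch held carmofur 7 to 12 and controls 7 to 9. There Vegfa and Gpi1 had positive log2 differences, 0.11 and 0.027. All the others past the carmofur threshold were negative in each of the 3 stretches. Of members that did not pass in all carmofur libraries but did under an alternative, 5 had the opposite sign in block 2 alone: Pgk1 (0.11), Pgam1 (0.21), Eno1 (0.062), Bnip3l (0.19) and Car9 (0.45). For carmofur, the 9 members past the threshold became 15 with limma-voom and 16 with the library block as a covariate (10.7% of all genes). They became 2, Tpi1 and Ndrg1, in block 2 alone (4.75%) and 17 in block 3 alone (5.33%). With counts summed by library set, which leaves 9 sums and fewer samples, 3 passed (2.64%). Without 1 library set each, the count ran from 7 to 13. Shares of all genes are not given here for limma-voom or for sets left out, so those counts cannot be set against them. The enzyme median minus the median of other targets was 0.58 in block 3 alone, and turned negative, -0.032, without carmofur replicates 13 to 15. For palmitic acid batch 1, the count of 1 became 0 without a filter and 2, with Car9, when both batches were merged, and without 1 library each it ran from 0 to 2. The enzyme median minus target median ran from -0.038 to 0.21 over these, highest without control 1, the shallowest library. For batch 2, the count of 0 became 1, Pfkp, with DESeq2, and the difference of medians ran from 0.23 to 0.48 without 1 library each, highest without control 1. The difference between treatments, 0 members, became 1, Tpi1, with limma-voom, with a mean count of at least 10 and without the 3 libraries that stand apart. The 5 members that differed across blocks became 0 with counts summed by set and 12 with unbroken stretches of library numbers as blocks, and without 1 set each, chosen after seeing the data like the summing and the stretches, ran from 3 (without controls 10 to 12) to 9 (without controls 7 to 9). Gapdh lost this call without the 3 libraries that stand apart (adjusted p 0.0716), and Vegfa with limma-voom (0.113) and without a filter (0.0518). The cause of these changes was not tested.

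Same-numbered control and treated libraries did not deviate together, with correlations from -0.022 to 0.049 and 0 of 12 carmofur pairs over 0.1. Only for replicates 1 to 3 do both libraries of a carmofur pair lie in the same library block, so the numbers need not mark a pair. Carmofur replicates 13 to 15 have no same-numbered control and add nothing to the carmofur effect in a fit blocked on replicate number. With the replicate number as a block, palmitic acid batch 1 had 0 members past the threshold, batch 2 had 0 and carmofur had 9. Pfkp in batch 1 (adjusted p 0.0551 in edgeR's test) and Higd1a with carmofur lost their calls. The 9 carmofur members are therefore not all the same as in the fit without this block. Shares of all genes are not given for these blocked fits, so their counts cannot be set against them. The difference of medians was 0.032, 0.19 and 0.02. Members of few counts, such as Adm, Pfkm and Pfkfb4, are limited by depth.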
